A study of Saccharomyces cerevisiae with 24 samples.

Results

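Glutathione is a small tripeptide thiol that keeps the cytosol reducing. Glutamate-cysteine ligase and glutathione synthetase make it from glutamate, cysteine and glycine, glutathione reductase returns its oxidized form to the thiol at the expense of NADPH, and glutaredoxins use it to reduce protein disulfides. Glutathione transferases couple it to electrophiles, among them alkylating agents, and in yeast many of these genes are known targets of the oxidative stress factor Yap1 or of the general stress factors Msn2 and Msn4. The 10 genes described here are GSH1 (YJL101C, glutamate-cysteine ligase), GSH2 (YOL049W, glutathione synthetase), GLR1 (YPL091W, glutathione reductase), the glutaredoxin genes GRX1 (YCL035C) and GRX2 (YDR513W), the transferase genes GTT1 (YIR038C) and GTT2 (YLL060C), and the omega-class transferase genes ECM4 (YKR076W, also named GTO2), GTO1 (YGR154C) and GTO3 (YMR251W). They were taken by gene symbol from a table of 5656 genes, each had 1 probe set, and all 10 passed the filter on dim genes, which 5171 genes passed in all. The genes were chosen by their role in glutathione metabolism with the rise of GTT2 with MMS already known, so the values with MMS are given as a description, with no p-value. Counts of genes called with MMS, GTT2 among them, are printed beside their background and nothing is read from them.

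Transcripts were measured on 24 one-colour Affymetrix S98 arrays of the haploid budding yeast strain BY4730, which lacks LEU2, MET17 and URA3, after an exposure of 120 min. The groups were bleomycin, which cuts DNA strands (3 arrays, 0.15, 0.1 and 0.15 U/ml per the titles), methyl methanesulfonate or MMS, which methylates DNA (3 arrays, 0.12, 0.12 and 0.14%), cisplatin, which crosslinks DNA (2 arrays, 500 and 650 ug with no volume given), NaCl (3 arrays, 10, 8 and 9%), ethanol (2 arrays, 15%) and control (11 arrays). The protocol text gives other amounts for cisplatin and NaCl than the titles do. Control cells received DMSO as the match of bleomycin, MMS and cisplatin or stayed in medium as the match of NaCl and ethanol, and which of these each control array received is not stated. Control replicates 2 and 4 share their day with both a bleomycin and a NaCl array, so 1 of those agents is set against a control that may not match its solvent. MFA1, an a-cell pheromone gene, read 12.3 ± 0.402 in the control arrays (SD, n = 11), and STE3, the receptor gene of alpha cells, read 3.75 ± 0.219. Of the genes the strain lacks, URA3 read 3.43 ± 0.245 and MET17 3.89 ± 0.215, close to the filter limit of 3.79 for dim genes, but LEU2 read 5.68 ± 0.4, well above that limit.

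Some arrays stood apart in the state of their RNA, read here from the control probe sets at the ends of the actin gene ACT1. NaCl replicates 2 and 3 and control replicate 11, the same-day control of MMS replicate 2, had an ACT1 3′ signal under 10 (7.98, 8.21 and 9.37), and their median correlation with the control arrays was 0.656 to 0.809, against 0.888 to 0.965 for the other 21 arrays. They are called the low-3′ arrays, and fold changes that rest on them are given with and without them. Without them NaCl rests on replicate 1, and MMS on replicates 1 and 3, since MMS replicate 2 has no control of its day left. The ACT1 5′ signal was 7.5 or higher, the high class, on the 3 MMS arrays, 2 bleomycin arrays, 1 cisplatin array and 5 control arrays, and lower, the low class, on the rest, among them the 3 NaCl arrays, both ethanol arrays and the 3 same-day controls of MMS. Relative to controls of the same day it was higher by 3.37 with MMS on average and fell by 5.38 on cisplatin replicate 1.

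Signals below are log2 values after quantile normalization, in which 1 unit is a doubling, and they are compared between arrays of the same gene, never between genes. A fold change is the log2 difference from control arrays of the same day, estimated by limma in 1 fit of all agents and days, with its standard error (SE). Bleomycin shares days with NaCl and cisplatin, so arrays of these agents enter each other's estimates, the low-3′ NaCl replicate 2 among them. A fold change can thus differ from the mean same-day difference, as for GTT1 with bleomycin (1.53 beside 1.75). A gene is called where its Benjamini-Hochberg adjusted p over 5171 genes is under 0.05. The labels do not say that arrays came from separate cultures, so p-values measure only the spread between these arrays. Fewer cells that carry a transcript and less transcript per cell cannot be told apart in such bulk samples.

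ECM4 was called higher with both bleomycin and cisplatin, and no other of the 10 genes was called with either agent. 1 of 10 genes called higher with bleomycin stands beside a background of 1.45% of all genes tested, and 1 of 10 with cisplatin beside 0.329%. With MMS 6 of 10 were called higher (background 33.5%), with GTT2 at 126-fold. With NaCl 7 of 10 were called lower (background 37.6%) and GTO3 higher (background 14.1%), but without the low-3′ arrays GRX2 was the 1 gene called, lower, beside a background of 9.65%. With ethanol GRX2 and GTO3 fell, 2 of 10 against a background of 1.18%, and 0 of 10 were called higher (background 3.83%).

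**Figure D1:**
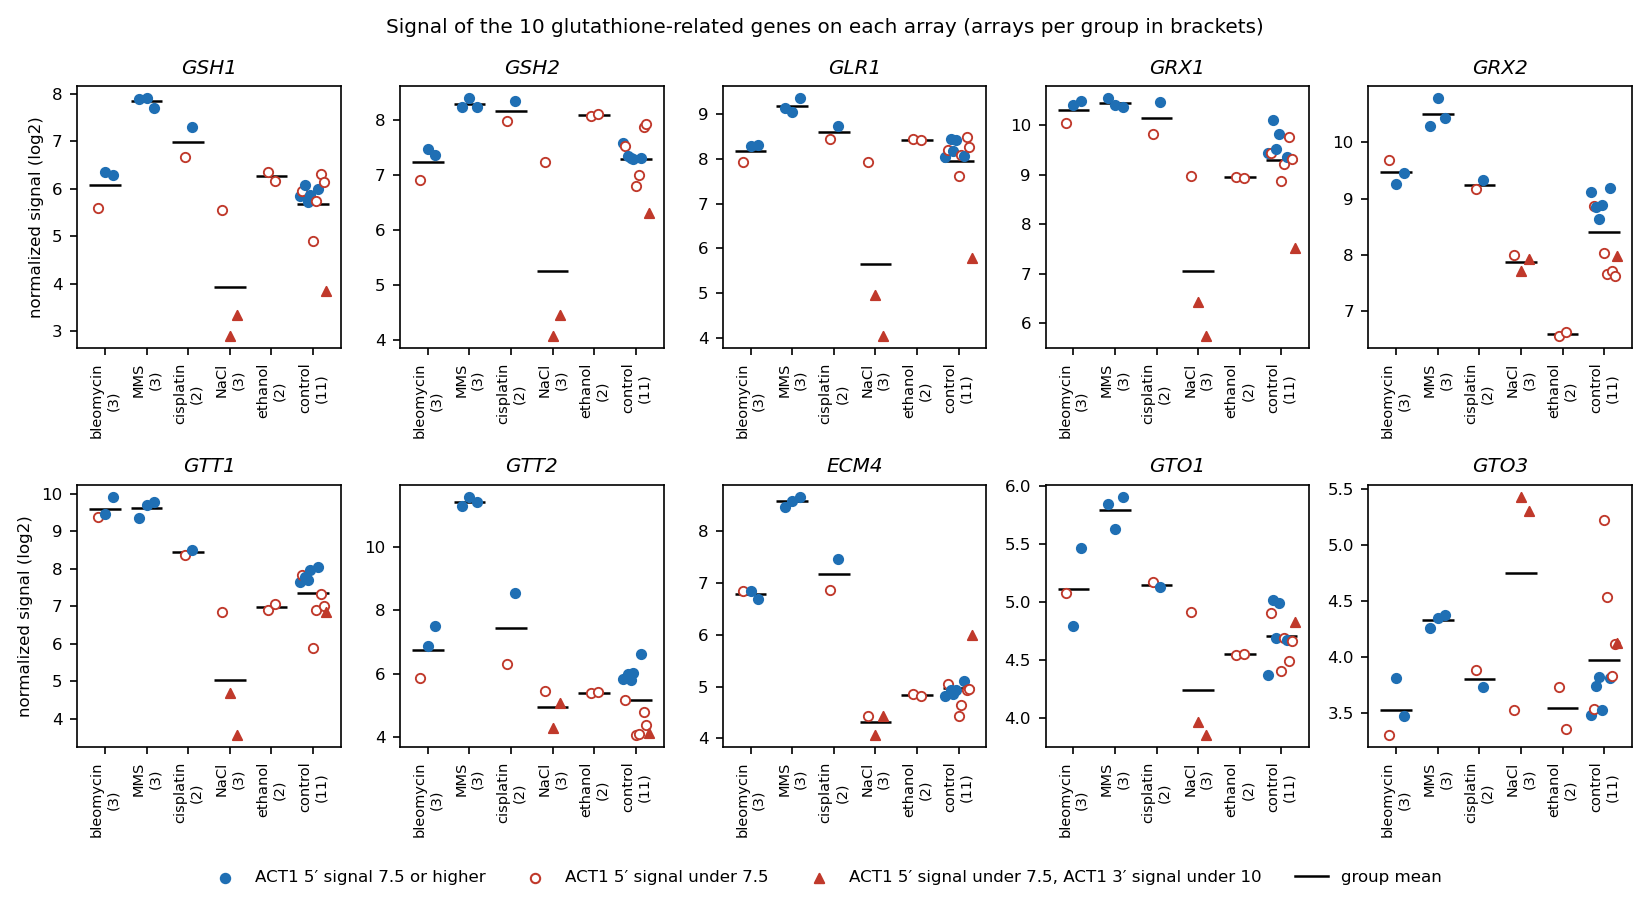
Normalized log2 signal (vertical axes) of the 10 genes on each of the 24 arrays by group (horizontal axes), with a bar at each group mean and symbols for the ACT1 5′ and 3′ signal of the array. GTT2 sits between 11.28 and 11.56 on the 3 MMS arrays, above its highest control value of 6.61, and the triangles are the 3 low-3′ arrays.

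GSH1 makes the first and rate-limiting enzyme of glutathione synthesis. Its signal was 5.6, 6.36 and 6.30 on bleomycin replicates 1, 2 and 3, 7.90, 7.91 and 7.71 with MMS, 6.68 and 7.29 with cisplatin, 5.55, 2.90 and 3.35 with NaCl and 6.36 and 6.16 with ethanol, against a lowest, median and highest value of 3.86, 5.87 and 6.32 in the control arrays. The MMS and cisplatin arrays thus lay above all 11 control arrays, and NaCl replicates 2 and 3 lay below them. With MMS the fold change was 2.40 ± 0.604, and the same-day differences of 1.76, 4.06 and 1.39 show that MMS replicate 2, whose control is the low-3′ control replicate 11, set its size. With the low-3′ arrays left out it was 1.58. With cisplatin GSH1 was at 1.06 ± 0.704 (adjusted p = 0.576), with an interval from -0.47 to 2.60, and it was called at 1.10 without the low-3′ arrays (adjusted p = 0.0157). With NaCl it fell by 1.95 ± 0.585 (adjusted p = 0.0174), but the NaCl array that is not low-3′ differed from its control by -0.40, and without the low-3′ arrays the value was -0.13 (adjusted p = 0.864). Bleomycin (0.06 ± 0.574, adjusted p = 0.979) and ethanol (0.94 ± 0.74, adjusted p = 0.462) gave no call, and ethanol gave one without the low-3′ arrays (adjusted p = 0.0191).

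GSH2, which makes the enzyme of the second step, read 6.90, 7.47 and 7.37 with bleomycin, 8.23, 8.40 and 8.25 with MMS, 7.98 and 8.35 with cisplatin, 7.24, 4.07 and 4.45 with NaCl and 8.07 and 8.11 with ethanol, against 6.31, 7.31 and 7.93 as the lowest, median and highest of the control arrays. All arrays of MMS, cisplatin and ethanol lay above every control array. The cisplatin arrays overlapped those of MMS and of ethanol, and the ethanol arrays lay below the MMS arrays. The fold change was 0.92 ± 0.588 with MMS, from same-day differences of 0.29, 2.09 and 0.38, and 0.34 without the low-3′ arrays. With ethanol it was 1.19 ± 0.721 (adjusted p = 0.338), from differences of 1.27 and 1.10, and without the low-3′ arrays the same value passed the test (adjusted p = 0.00195). With cisplatin it was 0.66 ± 0.686 (adjusted p = 0.751) and 0.70 without those arrays (adjusted p = 0.0449). The call with NaCl (-2.10 ± 0.57, adjusted p = 0.0115) rested on the low-3′ arrays, since replicate 1 differed by -0.29 and the value without them was -0.07 (adjusted p = 0.908). The same-day difference of GSH1 exceeded that of GSH2 by 1.47, 1.97 and 1.01 on MMS replicates 1, 2 and 3.

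GLR1, the glutathione reductase gene, read 7.92, 8.29 and 8.31 with bleomycin, 9.14, 9.05 and 9.36 with MMS, 8.44 and 8.74 with cisplatin, 7.93, 4.96 and 4.04 with NaCl and 8.44 and 8.42 with ethanol, against 5.79, 8.17 and 8.47 as the lowest, median and highest control values. The MMS arrays were above all control arrays, and the lowest control value is that of the low-3′ control replicate 11. Its fold change with MMS was 1.68 ± 0.69, from differences of 0.89, 3.26 and 0.88, and 0.89 without the low-3′ arrays. With NaCl GLR1 fell by 2.57 ± 0.668 (adjusted p = 0.00985), but replicate 1 differed by -0.27, replicates 2 and 3 by -3.21 and -4.39, and without the low-3′ arrays the value was -0.17 (adjusted p = 0.719). It was not called with bleomycin (-0.37 ± 0.656, adjusted p = 0.885), cisplatin (0.28 ± 0.805, adjusted p = 0.928) or ethanol (0.57 ± 0.845, adjusted p = 0.716). Ethanol gave a call for it without the low-3′ arrays (adjusted p = 0.0395).

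The glutaredoxins encoded by GRX1 and GRX2 are paralogs with a dithiol active site. GRX2 read 9.68, 9.26 and 9.45 with bleomycin, 10.29, 10.79 and 10.44 with MMS, 9.16 and 9.33 with cisplatin, 8.00, 7.71 and 7.92 with NaCl and 6.56 and 6.63 with ethanol. The lowest, median and highest of the control arrays were 7.63, 8.63 and 9.20. Bleomycin and MMS arrays lay above all of them and ethanol arrays below all of them. MMS was above bleomycin, bleomycin overlapped cisplatin, cisplatin and NaCl overlapped control, and ethanol was below NaCl. With MMS the fold change was 2.74 ± 0.235 (6.66-fold), from differences of 2.67, 2.81 and 2.73. GRX2 fell with ethanol by 1.26 ± 0.288 (adjusted p = 0.0311), from differences of -1.48 and -1.03, and its adjusted p was 0.000717 without the low-3′ arrays. The call was lost with any 1 of its 4 arrays left out. Each such fit rested on the ethanol array and control of 1 day, so these fits gave only the values -1.48 and -1.03. With NaCl it fell by 0.94 ± 0.228 (adjusted p = 0.00759). The NaCl differences were -0.86, -0.92 and -0.93, alike on the low-3′ arrays and on replicate 1, and the call held with each of its 6 arrays left out in turn (highest adjusted p = 0.047).

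GRX2 also moved with the ACT1 5′ class in the control arrays, at 7.98 ± 0.468 in the low class (SD, n = 6) and 8.94 ± 0.223 in the high class (SD, n = 5). In a fit with that class in place of the day, called the class fit here, it was at 1.75 with MMS, -0.25 with NaCl (adjusted p = 0.514) and -1.53 with ethanol (adjusted p = 0.0036). With bleomycin it was at 0.63 ± 0.224 (adjusted p = 0.276), with differences of 0.82, 0.63 and 0.56, and it was called without the low-3′ arrays (adjusted p = 0.0309) and in the class fit (0.92, adjusted p = 0.048). Over all alternatives GRX2 was called with bleomycin in 3 of 20. The part of the RNA state in these values was not tested. With cisplatin GRX2 was at 0.29 ± 0.274 (adjusted p = 0.72).

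GRX1 read 10.04, 10.41 and 10.50 with bleomycin, 10.56, 10.42 and 10.38 with MMS, 9.83 and 10.47 with cisplatin, 8.98, 6.42 and 5.73 with NaCl and 8.96 and 8.93 with ethanol, against 7.51, 9.43 and 10.10 as the lowest, median and highest control values. MMS arrays lay above every control array, and the bleomycin arrays lay above their own same-day controls but not above all controls. Its fold change with MMS was 1.58 ± 0.641, from differences of 1.24, 2.91 and 0.60, and 0.92 without the low-3′ arrays. With bleomycin it was 0.42 ± 0.609 (adjusted p = 0.864), and 0.70 without the low-3′ arrays (adjusted p = 0.0242). GRX1 fell with NaCl by 2.61 ± 0.621 (adjusted p = 0.00699), with differences of -0.46, -3.11 and -4.37, and was at -0.41 without the low-3′ arrays (adjusted p = 0.369). With ethanol GRX1 was at -0.10 ± 0.785 (adjusted p = 0.949), with an interval from -1.82 to 1.61, and with cisplatin at 0.47 ± 0.747 (adjusted p = 0.849). The same-day difference of GRX2 was below that of GRX1 by 1.57 and 0.74 on the ethanol arrays, while the MMS arrays gave 1.42, -0.09 and 2.12 for GRX2 minus GRX1.

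**Figure D2:**
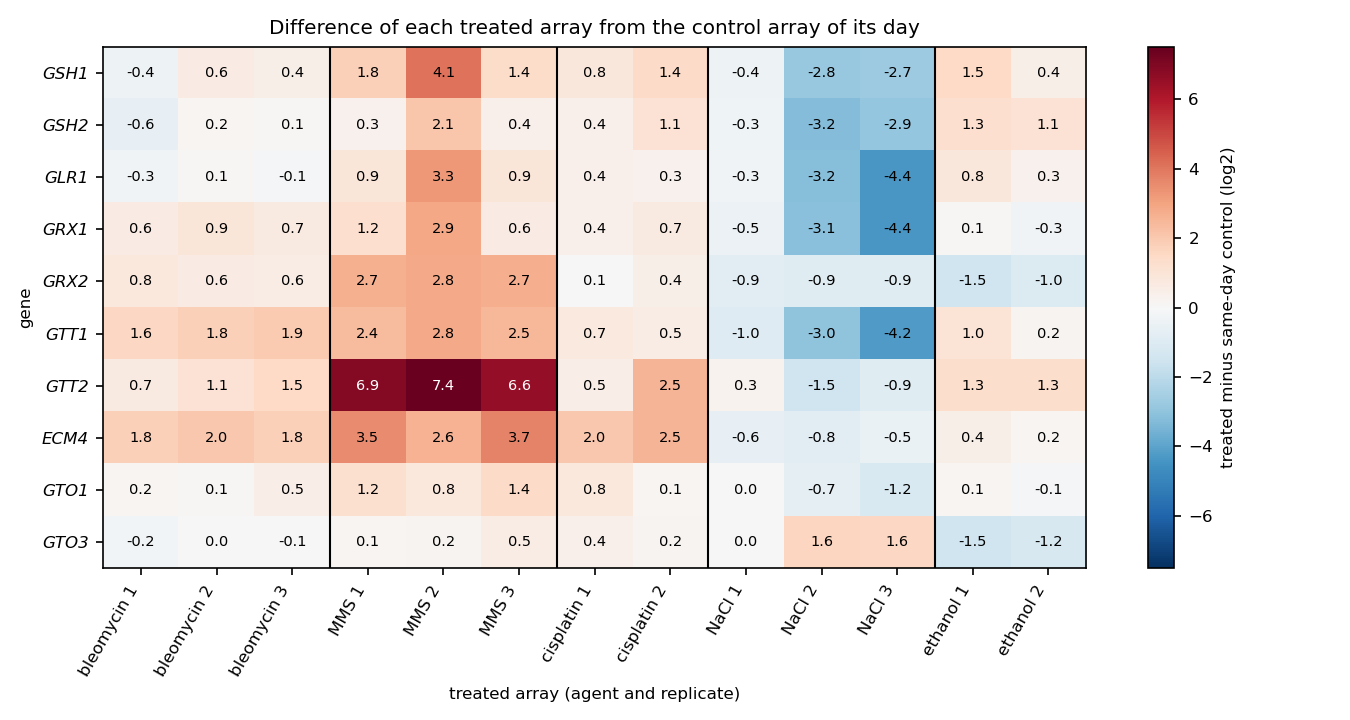
Difference in log2 signal between each of the 13 treated arrays (columns) and the control array of its day, for the 10 genes (rows). MMS is positive for each of the 10 genes on its 3 arrays, NaCl replicate 1 stays between -0.97 and 0.27 while replicates 2 and 3 reach -3.24 and -4.39, and GRX2 and GTO3 are negative on both ethanol arrays.

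GTT1 and GTT2 encode glutathione transferases, and GTT1 is placed at the endoplasmic reticulum. GTT2 read 5.87, 6.88 and 7.51 with bleomycin, 11.28, 11.56 and 11.40 with MMS, 6.31 and 8.54 with cisplatin, 5.44, 4.29 and 5.09 with NaCl and 5.38 and 5.41 with ethanol, against 4.07, 5.17 and 6.61 as the lowest, median and highest control values. The MMS arrays were above every other array, and the NaCl and ethanol arrays lay inside the control range. By mean level cisplatin and bleomycin came next and overlapped each other, and 1 array of each lay inside the control range as well. The MMS fold change was 6.98 ± 0.416 (126-fold), from differences of 6.91, 7.42 and 6.62. GTT2 was 4.44 ± 0.447 in the low-class control arrays (SD, n = 6) and 6.05 ± 0.328 in the high-class ones (SD, n = 5), without overlap, and the 3 MMS arrays are high class while their same-day controls are low class. In the class fit the value was 5.35 (40.8-fold), and within the high class it was 5.37 (41.3-fold). With the low-3′ arrays left out it was 6.76.

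With cisplatin GTT2 was higher by 0.48 and 2.52 on replicates 1 and 2, a fold change of 1.48 ± 0.485 (adjusted p = 0.231). Replicate 1 is a low-class array with a high-class control, and replicate 2 and its control are both high class. The class fit gave 2.18 (adjusted p = 0.000148), the high class alone, which holds 1 cisplatin array (replicate 2), gave 2.50, and the fit without the low-3′ arrays gave 1.49 (adjusted p = 0.00932). With bleomycin the differences were 0.70, 1.09 and 1.49 and the fold change 0.89 ± 0.395 (adjusted p = 0.464), with a call in the class fit (1.24, adjusted p = 0.00397) and without the low-3′ arrays (0.92, adjusted p = 0.0492). With ethanol both arrays were higher than their controls by 1.31 (1.31 ± 0.509, adjusted p = 0.15), and the call was made without the low-3′ arrays (adjusted p = 0.00942) and in the class fit (0.97, adjusted p = 0.0465). Over all alternatives, each array left out among them, GTT2 was called in 4 of 20 with bleomycin. With cisplatin and with ethanol it was called in 3 of 18 each. With NaCl GTT2 was at -0.69 ± 0.402 (adjusted p = 0.163) and turned to 0.51 in the class fit (adjusted p = 0.14), so neither direction was called.

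GTT1 read 9.39, 9.47 and 9.92 with bleomycin, 9.36, 9.71 and 9.79 with MMS, 8.37 and 8.51 with cisplatin, 6.86, 4.70 and 3.57 with NaCl and 6.90 and 7.07 with ethanol, against 5.88, 7.64 and 8.06 as the lowest, median and highest control values. All arrays of the 3 DNA-damaging agents lay above all control arrays, and the bleomycin arrays overlapped the MMS arrays. Cisplatin lay between bleomycin and control without overlap with either, ethanol overlapped control, and NaCl lay below ethanol. With bleomycin the same-day differences were 1.55, 1.76 and 1.95, and the fold change of 1.53 ± 0.471 was not called (adjusted p = 0.173). It was called without the low-3′ arrays at 1.78 (3.44-fold, adjusted p = 5.89e-05), in the class fit at 2.09 (adjusted p = 0.00405) and within the high class at 1.86 (adjusted p = 4.42e-06). Over all alternatives GTT1 was called with bleomycin in 6 of 20, and in 0 of the 6 fits with an array left out. With MMS GTT1 was at 2.56 ± 0.496 (5.88-fold), and at 1.88 in the class fit. With cisplatin it was at 0.50 ± 0.578 (adjusted p = 0.786). GTT1 fell with NaCl by 2.65 ± 0.48 (adjusted p = 0.00235), a call that each array left out in turn did not end (highest adjusted p = 0.0237). The differences were -0.97, -3.02 and -4.22, and without the low-3′ arrays the value was -0.86 (adjusted p = 0.0644). With ethanol GTT1 was at 0.60 ± 0.607 (adjusted p = 0.578).

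The omega-class transferases, made from ECM4, GTO1 and GTO3 in yeast, are known for thiol transferase activity rather than for conjugation. ECM4 read 6.85, 6.85 and 6.69 with bleomycin, 8.47, 8.59 and 8.66 with MMS, 6.86 and 7.46 with cisplatin, 4.43, 4.06 and 4.43 with NaCl and 4.86 and 4.81 with ethanol. The lowest, median and highest of the control arrays were 4.43, 4.93 and 6.0, the last from the low-3′ control replicate 11, and all 8 arrays of the DNA-damaging agents lay above them. In order of level, MMS was above cisplatin, cisplatin above bleomycin and bleomycin above control, with no overlap between neighbours, while control and ethanol overlapped. The lowest cisplatin and highest bleomycin values were close, at 6.863 and 6.846. In the deposited values, before quantile normalization, cisplatin replicate 1 (6.77) lay below the bleomycin arrays (6.80 to 6.86), so the order of these agents is not settled. ECM4 rose with bleomycin by 1.83 ± 0.219 (3.55-fold, adjusted p = 0.000788), with differences of 1.79, 1.99 and 1.76. It rose with cisplatin by 2.34 ± 0.269 (5.07-fold, adjusted p = 0.00403), with differences of 2.04 and 2.54. With MMS it was at 3.28 ± 0.231 (9.68-fold), with differences of 3.52, 2.58 and 3.72.

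The ECM4 signal differed little between the ACT1 5′ classes in the control arrays, with means of 5.0 ± 0.542 in the low class (SD, n = 6) and 4.93 ± 0.112 in the high class (SD, n = 5). The low-class mean includes the low-3′ control replicate 11, the highest of that class at 6.0. The class fit gave 1.82 with bleomycin, 2.19 with cisplatin and 3.60 with MMS, and the fit without the low-3′ arrays gave 1.80, 2.33 and 3.62. Within the low class, which holds 1 bleomycin and 1 cisplatin array, ECM4 was called with neither agent. Those arrays read 6.85 and 6.86. The call with bleomycin held with each of its 6 arrays left out (highest adjusted p = 0.013). The call with cisplatin was lost without cisplatin replicate 1, cisplatin replicate 2 or control replicate 1 (adjusted p up to 0.171), and over the 4 arrays left out in turn the value ran from 2.04 to 2.59. With NaCl ECM4 fell by 0.67 ± 0.223 (adjusted p = 0.0263), and without the low-3′ arrays the value of -0.62 was not called (adjusted p = 0.109). With ethanol it was at 0.30 ± 0.283 (adjusted p = 0.544).

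GTO1 read 5.08, 4.79 and 5.47 with bleomycin, 5.84, 5.63 and 5.90 with MMS, 5.17 and 5.13 with cisplatin, 4.91, 3.97 and 3.85 with NaCl and 4.54 and 4.55 with ethanol, against 4.37, 4.69 and 5.02 as the lowest, median and highest control values. It was highest with MMS, at 1.13 ± 0.248 (2.19-fold) and 1.05 in the class fit. It was not called with bleomycin (0.22 ± 0.236, adjusted p = 0.81), cisplatin (0.35 ± 0.289, adjusted p = 0.681), NaCl (-0.55 ± 0.24, adjusted p = 0.0726) or ethanol (0.00 ± 0.304, adjusted p = 0.998). The same-day difference of ECM4 exceeded that of GTO1 by 1.28 to 1.89 on the bleomycin arrays, 1.78 to 2.34 on the MMS arrays and 1.24 and 2.40 on the cisplatin arrays.

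GTO3 was dim, with a mean signal of 4.01 beside the filter limit of 3.79. It read 3.30, 3.81 and 3.47 with bleomycin, 4.26, 4.34 and 4.37 with MMS, 3.88 and 3.73 with cisplatin, 3.53, 5.43 and 5.30 with NaCl and 3.73 and 3.36 with ethanol, against 3.48, 3.82 and 5.22 as the lowest, median and highest control values. Its highest values are on the low-3′ NaCl arrays and on control replicate 6, the control set against ethanol replicate 1. GTO3 rose with NaCl by 1.05 ± 0.264 (adjusted p = 0.00851), with differences of 0.00, 1.61 and 1.56, and without the low-3′ arrays it was at 0.07 (adjusted p = 0.871). It fell with ethanol by 1.33 ± 0.334 (adjusted p = 0.0424), with differences of -1.49 and -1.17. That call was lost in the class fit (-0.59, adjusted p = 0.354) and with any 1 of its 4 arrays left out. Each of the latter fits rested on the ethanol array and control of 1 day and gave -1.49 or -1.17. GTO3 was not called with bleomycin (0.00 ± 0.259, adjusted p = 0.999) or cisplatin (0.30 ± 0.318, adjusted p = 0.758), and with MMS it was at 0.30 ± 0.273, the smallest value among the 10 genes.

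**Figure D3:**
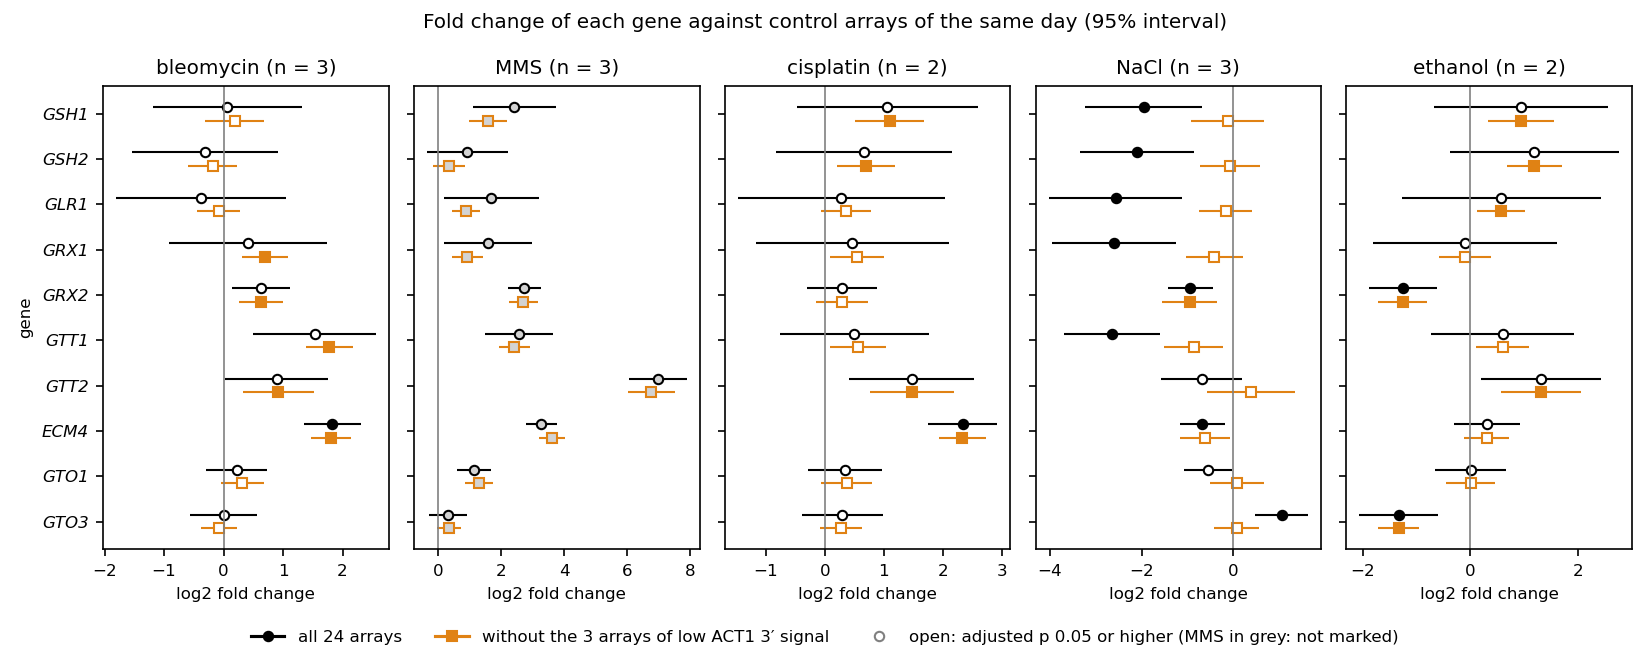
Log2 fold change of each gene (rows) with each agent against control arrays of the same day, from all 24 arrays (circles) and without the 3 low-3′ arrays (squares), with 95% intervals. ECM4 lies at 1.83, 3.28 and 2.34 with bleomycin, MMS and cisplatin, and most NaCl values move to near 0 without the low-3′ arrays.

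Over the 10 genes the median fold change was 0.32 with bleomycin, 2.04 with MMS, 0.49 with cisplatin, -1.44 with NaCl and 0.44 with ethanol, beside medians over all genes tested of -0.08, 0.29, -0.07, -0.45 and 0.14. With MMS 10 of 10 genes lay above all same-day controls (background 44.7%) and 9 of 10 above all 11 control arrays (background 28.6%), GTO3 being the exception. With cisplatin 10 of 10 lay above both same-day controls (background 23%) and 5 of 10, namely GTT1, ECM4, GTO1, GSH1 and GSH2, above all control arrays (background 5.12%). These counts use normalized signal. In the deposited values GTO3 with MMS (4.05 to 4.11) overlapped its same-day controls (3.92 to 4.42). With cisplatin replicate 1 deposited GLR1 (8.355) was below control replicate 5 (8.634), and GRX2 (9.18) was below control replicate 1 (9.28). With bleomycin 4 of 10 lay above the same-day controls (background 11.7%), and GTT1, ECM4 and GRX2 lay above all control arrays (background 5.61%). With NaCl 7 of 10 lay below the same-day controls (background 29.8%). With ethanol 6 of 10 lay above (background 42.4%) and 2 below (background 28.9%) the same-day controls, GSH2 lay above all control arrays (background 16.7%) and GRX2 below them (background 9.4%).

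Without the low-3′ arrays limma called 5 of 10 genes higher with bleomycin, GTT1, GTT2, ECM4, GRX1 and GRX2, against a background of 5.8%. It called 4 of 10 higher with cisplatin, GTT2, ECM4, GSH1 and GSH2, against 6.92%. With MMS, which rests on replicates 1 and 3 in this fit, it called 8 of 10 higher (background 36.9%). With ethanol GTT2, GSH1, GSH2 and GLR1 were called higher (background 26.6%), and GTO3 and GRX2 lower (background 16%). Standard errors were smaller there, as for GTT1 with bleomycin (0.183 in place of 0.471). Over all alternatives, each array left out among them, GRX1 was called with bleomycin in 3 of 20. GSH1 and GSH2 were called with cisplatin in 2 of 18 each. With ethanol GSH1 and GLR1 were called in 1 of 18 each and GSH2 in 2 of 18.

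**Figure D4:**
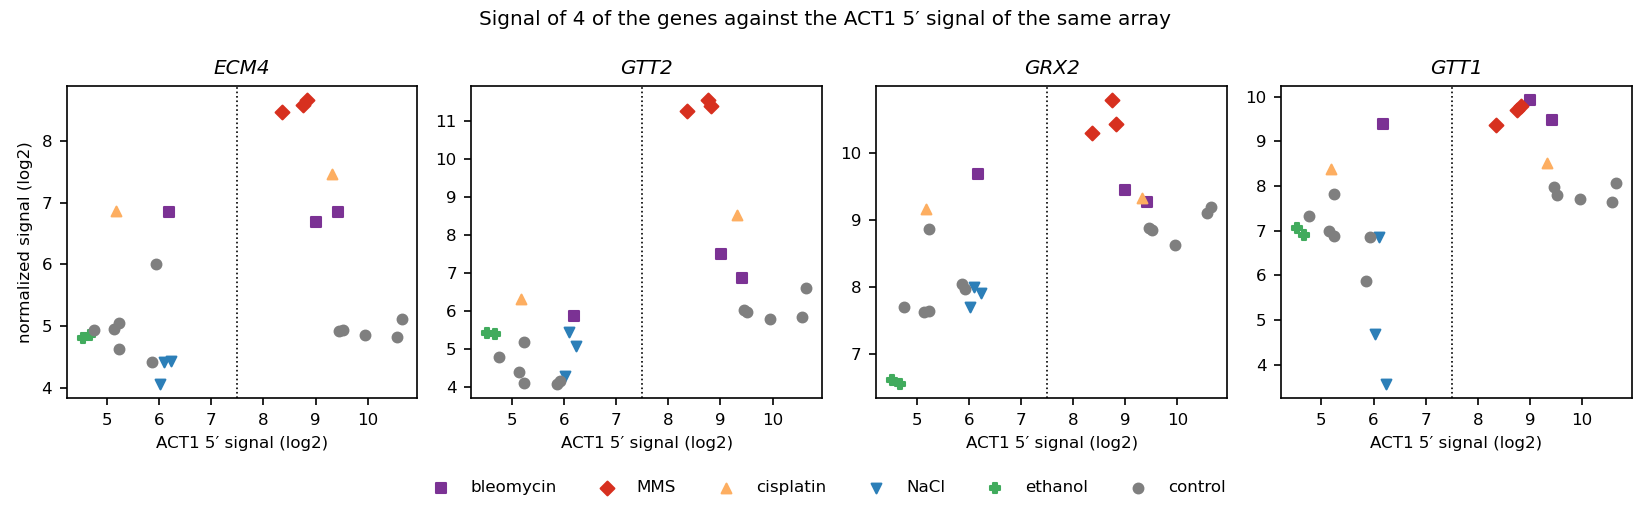
Normalized log2 signal of 4 of the genes (vertical axes) against the ACT1 5′ signal of the same array (horizontal axes, log2) on the 24 arrays, with a dotted line at 7.5. Control arrays left and right of the line do not overlap for GTT2 (means 4.44 and 6.05) and lie at 5.0 and 4.93 for ECM4.

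Bleomycin and cisplatin, which differ in how they damage DNA, were set against each other within the same fit, as were ethanol and NaCl. Cisplatin minus bleomycin was called for 0 of 10 genes (background 0.135% either way). The difference for ECM4 was 0.51, with an interval from -0.15 to 1.18 (adjusted p = 1), and that for GTT1 was -1.03, with an interval from -2.46 to 0.40 (adjusted p = 1), which do not show that the agents act alike. Without the low-3′ arrays the GTT1 difference was -1.21 (adjusted p = 0.0319), with GTT1 lower under cisplatin than under bleomycin, and it was the 1 call among the 10 genes in that fit (background 1.26%). Within the high class, which holds 1 cisplatin array, GTT2, GSH1 and GSH2 were called higher under cisplatin and GTT1 lower, 4 of 10 (background 1.95% either way), in a fit chosen after the data were seen. Ethanol minus NaCl was called for 6 of 10 genes (background 36% either way), with GTT1 at 3.24, GTT2 at 2.00, GSH1 at 2.89, GSH2 at 3.29 and GLR1 at 3.14 higher under ethanol and GTO3 lower, at -2.39. With ethanol replicate 1, ethanol replicate 2, control replicate 6 or control replicate 7 left out, 0 of 10 were called, and with NaCl replicate 2 or 3 or control replicate 3 or 4 left out, 1 to 3 were. Without NaCl replicate 1 the count was 9. Without the low-3′ arrays, which leaves 1 NaCl array, GTT1 (1.46, adjusted p = 0.0263), GSH2 (1.26, adjusted p = 0.0455) and GTO3 (-1.4, adjusted p = 0.0115) were called, 3 of 10 (background 15.3%).

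The 10 genes did not share 1 pattern over the arrays. Correlations over the 24 arrays are a description, since arrays share days, agents and the RNA state. GSH1, GSH2, GLR1 and GRX1 correlated with each other at 0.86 to 0.94, and in the 11 control arrays at 0.76 to 0.97. Control replicate 11, a low-3′ array, gave the lowest control signal of each of them (3.86, 6.31, 5.79 and 7.51). The low-3′ NaCl replicates 2 and 3 read lower still. None of the correlations was taken without the low-3′ arrays, so the part of the RNA state in them was not tested. ECM4 and GTT2 correlated at 0.89 over the 24 arrays and at -0.03 over the control arrays, and GTT2 and GRX2 at 0.81 and 0.89. GTO3 correlated negatively with the other 9, from -0.63 to -0.08, and at -0.92 with GTT1 in the control arrays.

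Among all genes tested, the pattern of GTT2 over the 24 arrays was most like that of IRC19 (r = 0.98), YML131W (0.98) and FLR1 (0.98), the last a plasma membrane drug exporter gene. With MMS these were at 2.56, 4.96 and 5.06. The pattern of GRX2 was most like those of the aldose reductase gene GRE3 (0.98), TFS1 (0.95) and RCR1 (0.94), and GRE3 was at 3.43 with MMS and -1.17 with ethanol. ECM4 was closest to ATG19 (0.95), YNL134C (0.95) and YLR297W (0.94), which were at 0.64, 0.93 and 1.96 with bleomycin and 0.94, 1.60 and 1.53 with cisplatin. GTT1 was closest to HFD1 (0.96), ALG13 (0.95) and PMC1 (0.94), GSH1 to DOA1 (0.97), NFU1 (0.96) and PRE5 (0.96), GSH2 to ARC19, MIX23 and SEC10 (each 0.95), and GLR1 to ARC19, TAF10 and MPC2 (each 0.97). GRX1 was closest to RDL1 (0.98), ARA1 (0.97) and HSP10 (0.96), GTO1 to ADP1 (0.94), CUR1 (0.93) and POM33 (0.93), and GTO3 to MED7 (0.93), LAS17 (0.92) and RSO55 (0.92). All of these similarities include the low-3′ arrays and were not taken without them. The chromosomal neighbours of GTT2 in RefSeq's gene table (assembly R64), MMP1 and HSU1, were at 0.43 and 1.4 with MMS, against 6.98 for GTT2, and those of ECM4, YKR075C and MSA2, at 1.39 and 1.33, against 3.28 for ECM4.

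Genes of the surrounding pathways were followed with the same fit, beside a median over all genes of 0.29 with MMS and 33.5% of all genes called higher. With MMS 9 of 19 further genes of glutathione-dependent enzymes and turnover were called higher (median 0.71), with the glyoxalase gene GLO1 at 2.82, the glutathione-dependent formaldehyde dehydrogenase gene SFA1 at 2.49 and the gamma-glutamyltransferase gene ECM38 at 2.28. Of transporters 4 of 6 were called higher (median 1.51), among them the exporter genes ATR1 (5.42) and FLR1 (5.06) and the vacuolar glutathione conjugate pump gene YCF1 (2.35). Of thioredoxin and peroxiredoxin genes 11 of 13 were called higher (median 2.06), with the sulfiredoxin gene SRX1 at 5.09. Of genes that supply cysteine 12 of 18 were called higher (median 0.88), with the cystathionine lyase gene CYS3 at 3.89. Among genes that supply NADPH to glutathione reductase 6 of 14 were called higher and TKL2 lower (median 0.59), with the glucose-6-phosphate dehydrogenase gene ZWF1 at 5.23. Of 16 transcription factor genes 9 were called higher (median 0.83), among them YAP1 (3.09). Without the low-3′ arrays the counts called higher, in the same order of lists, were 10, 4, 11, 11, 6 and 11 (background 36.9%). Called lower were then 1 transporter, 2 cysteine supply genes and 3 NADPH genes (background 26%). The NADPH list had a median of 0.06 there, beside 0.17 over all genes tested, and TKL2 (-0.50) was not called.

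These lists were also followed with the other agents in the fit of all 24 arrays. Of all genes tested 1.45% were called higher with bleomycin, 0.329% with cisplatin and 3.83% with ethanol. With bleomycin the glutathione peroxidase gene GPX1 rose by 1.22 ± 0.222 (adjusted p = 0.0157), 1 of 19 enzymes, and SOL4, TKL2 and IDP2 of the NADPH list rose by 1.41, 1.48 and 0.92, 3 of 14. The transcription factor gene CIN5 rose by 1.09 ± 0.226 (adjusted p = 0.0288), 1 of 16, and 0 of the transporters, thioredoxin genes and cysteine supply genes were called. With cisplatin ATR1 rose by 1.69 ± 0.284 (adjusted p = 0.0218), the 1 call among these lists. With ethanol the glutaredoxin gene GRX8 rose by 1.37 ± 0.264 (adjusted p = 0.0161), the mitochondrial thioredoxin gene TRX3 by 2.23 ± 0.404 (adjusted p = 0.0132), and the cysteine supply genes MMP1, MET3 and STR3 by 1.87, 1.69 and 1.51, 3 of 18. With NaCl 10 of 19 enzymes, 10 of 13 thioredoxin and peroxiredoxin genes, 8 of 18 cysteine supply genes and 7 of 14 NADPH genes were called lower, with medians of -0.80, -1.61, -0.76 and -1.15 beside -0.45 over all genes tested, of which 37.6% were called lower. In the transporters 2 of 6 and in the transcription factors 3 of 16 were called lower. Called higher with NaCl were 2 enzymes, 1 thioredoxin or peroxiredoxin gene (SRX1, at 2.24) and 1 cysteine supply gene. The same held for 2 NADPH genes and 4 transcription factor genes (background 14.1%). With the low-3′ arrays left out 1 NaCl array remained and the 4 counts of lower genes named first were 2, 6, 1 and 3 (background 9.65%), with TRX1 at -1.0 (adjusted p = 0.0479) and the peroxidase gene HYR1 at -0.93 (adjusted p = 0.024) still called.

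The counts with bleomycin, cisplatin and ethanol were also taken without the low-3′ arrays, none of which belongs to these 3 agents. With bleomycin 3 of 19 enzyme and turnover genes, 5 of 13 thioredoxin and peroxiredoxin genes, 4 of 14 NADPH genes, 1 of 18 cysteine supply genes and 1 of 16 transcription factor genes were then called higher (background 5.8%), and 6 cysteine supply genes and 2 NADPH genes lower (background 5.07%). With cisplatin 3 enzyme and turnover genes, 3 of 6 transporters, 2 thioredoxin and peroxiredoxin genes, 3 cysteine supply genes, 1 NADPH gene and 3 transcription factor genes were called higher (background 6.92%). In the same fit 1 transporter, 1 thioredoxin or peroxiredoxin gene, 5 cysteine supply genes, 2 NADPH genes and 2 transcription factor genes were called lower with cisplatin (background 12.9%). With ethanol 12 of 18 cysteine supply genes were called higher, beside 3 each of the enzyme and turnover, transporter and NADPH genes and 1 each of the thioredoxin and transcription factor lists (background 26.6%). Lower with ethanol were 3 transcription factor genes and 1 each of the thioredoxin and NADPH lists (background 16%).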

How the data were processed

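The authors deposited 1 log2 signal value per probe set and array. Per the labels' protocols, poly(A)+ RNA was amplified from an oligo(dT) primer and hybridized as biotin-labelled cRNA. The log2 scale was read from the range of the deposited values, 1.42 to 14.4, and how probes were summarised and arrays scaled is not given in the sources used here. No scanner file entered, and precision is limited by the number of arrays.

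Of 9335 probe sets, 60 controls were set aside, 6504 were paired with 1 gene in the given probe table, 328 with several, and 2443 were not in it. The probe set with the highest mean stood for each of 5656 genes. Values were quantile-normalized with R 4.3.3 and limma 3.58.1, and 5171 genes with a mean above the pooled 20th percentile (3.79) were tested. lmFit took 5 agent terms and the day of the title as a block over 24 arrays (8 residual degrees of freedom), followed by eBayes with an intensity trend, and 2 differences between agents came from the same fit. 12 of 13 treated arrays have a control of the same date, and ethanol replicate 1, whose title gives another year, was placed with control replicate 6. Replicates were numbered in accession order, and 0 columns were identical.

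The members, gene lists, tests and alternatives were chosen with earlier results of these data known. Named genes were the 10 members, the 3 genes most correlated with each, and up to 3 called members of each list with the largest change per agent. The neighbours and the list genes named for NaCl without the low-3′ arrays were chosen after their values were seen. The procedure was run on simulated data with independent normal noise and a day effect. These data held no low-3′ arrays and no ACT1 5′ class, so they do not show how calls behave under either. Alternatives were median scaling, no further normalization, a pseudocount at the 10th percentile, no filter or the 40th percentile, a fit without the day block, a random day block, no trend, only the arrays compared, the mean over probe sets, the ACT1 5′ class (limit 7.5) as a block or fitted alone, no low-3′ arrays (limit 10), and each array left out. Plots came from matplotlib 3.10.9 under Python 3.11.15.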

Additional observations from a re-analysis of the deposited data

Results flagged for a closer look

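In 6 of the 10 genes the effect of ethanol differed from that of NaCl by a test of the difference within the limma fit (ethanol minus NaCl, adjusted over 5171 genes), beside 36% of all genes. The difference was 3.24 ± 0.774 for GTT1 (SE, adjusted p = 0.017), 2.00 ± 0.649 for GTT2 (adjusted p = 0.0346), 2.89 ± 0.943 for GSH1 (adjusted p = 0.0353), 3.29 ± 0.919 for GSH2 (adjusted p = 0.023) and 3.14 ± 1.08 for GLR1 (adjusted p = 0.0414). For GTO3 it was -2.39 ± 0.426 (adjusted p = 0.0107). NaCl replicates 2 and 3 are low-3′ arrays, and without the low-3′ arrays GTT2 was at 0.93 (adjusted p = 0.269), GSH1 at 1.07 (adjusted p = 0.134) and GLR1 at 0.74 (adjusted p = 0.146). With any 1 of ethanol replicate 1, ethanol replicate 2, control replicate 6 and control replicate 7 left out, 0 of the 10 genes were called. No group of these arrays had 4 to 10 members, so single arrays were not tested as outliers.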

How the results depend on the processing

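Percentages in brackets here are shares of all genes tested called either way in the same setting. Of the 10 genes the number called with bleomycin was 1 (1.86%). It was 2 with no day block (no replicate block, 4.06%), 2 with day as a random block and 5 with only the arrays compared. The class fit gave 4 (5.01%), the high class 5 (19.6%) and the fit without the low-3′ arrays 5 (10.9%). Within the low class, which holds 1 bleomycin array, the median fold change of the 10 genes was 0.72, beside 0.32 in the main fit. With MMS the number called was 6 (50.5%), and 10 within the high class, where 70.5% of all genes were called either way. With cisplatin it was 1 (0.464%), and 2 in the class fit (1.24%) and 4 without the low-3′ arrays (19.8%). The high and the low class each hold 1 cisplatin array. The median fold change of the 10 genes was 0.75 and 1.0 there, beside 0.49 in the main fit. With NaCl the number called was 8 (51.7%), and 0 with only the arrays compared and 0 within the low class (7.72%). Without the low-3′ arrays, which leaves 1 NaCl array, the median fold change of the 10 genes was -0.15, beside -1.44 in the main fit. With ethanol the number called was 2 (5.01%). It was 1 each under median scaling, no further normalization, the 40th percentile filter, no day block (11.7%), a random day block and no trend. It was 0 with ethanol replicate 1 on its own day, 4 with only the arrays compared, 0 within the low class (1.12%) and 6 without the low-3′ arrays (42.6%). Without the low-3′ arrays cisplatin minus bleomycin gave 1 call in place of 0 (4 within the high class, with 1 cisplatin array, an alternative chosen after seeing the data), and ethanol minus NaCl gave 3 in place of 6. With each array left out in turn the counts ranged from 1 to 1 for bleomycin, 5 to 6 for MMS, 0 to 1 for cisplatin, 2 to 10 for NaCl and 0 to 0 for ethanol, from 0 to 0 for cisplatin minus bleomycin and from 0 to 9 for ethanol minus NaCl. NaCl fell to 2 without NaCl replicate 2, NaCl replicate 3 or control replicate 3. Where this left 1 array of an agent, it was assumed to vary like the other groups. Where no other agent shared the day, leaving out a treated array or its control gave the same estimate, so these fits are not separate checks. The share over all genes is not given for counts with an array left out. The cause of these changes was not tested. The low class holds 1 bleomycin array, 1 cisplatin array, the 3 NaCl arrays and both ethanol arrays. No called value changed sign under any alternative. The day block stands for the pairing of treated and control arrays, which comes from the dates in the titles. The correlation of the random day block was 0.0413.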
